A study of Mus musculus with 8 samples.

Results

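The genes described here are the matrix metalloproteases (Mmp), the ADAMTS proteases (Adamts), the ADAMTS-like proteins (Adamtsl) and the tissue inhibitors of metalloproteases (Timp), followed in gastrocnemius, a calf muscle, of arthritic mice with and without dipyridamole. They were chosen by symbol alone, as every gene whose name joins 1 of those 4 stems to a number. The rule found 50 genes of 21833 in the count tables: 22 Mmp, 19 Adamts, 5 Adamtsl and 4 Timp genes. Of these 50, 33 passed the filter on low counts and were tested, and 17 did not and are given as not measured.

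Poly(A) RNA of muscle from male C57BL/6J mice aged 12 weeks was sequenced in 8 libraries, 4 mice being given for each group. Every mouse was injected into the peritoneum with 100 µL of serum on day 0 and again on day 2, pooled from animals of the K/BxN cross, which develops antibody-driven arthritis, and muscle was taken on day 16. RA+Dipy mice (n = 4) also had dipyridamole, a blocker of nucleoside transport and of several phosphodiesterases, at 25 mg/kg per day from day 0. RA mice (n = 4) had the serum without the drug. The genotype field reads K/BxN for these serum recipients, and the treatment protocol names the drug for all 8 samples, so the groups were taken from the sample titles. Both groups were arthritic, mice that had no serum were not analysed here, and the labels do not say what RA mice had in place of the drug. The series asks whether the drug can prevent rheumatoid cachexia, the muscle loss that accompanies arthritis, and the comparison shows how these protease and inhibitor transcripts stood in treated mice beside untreated ones.

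Matrix metalloproteases are zinc enzymes that cut collagens, gelatin, laminins and other matrix proteins, and most are made as inactive precursors that another protease must open. The ADAMTS enzymes are related zinc proteases that cut proteoglycans such as versican and aggrecan or trim procollagens, whereas the ADAMTS-like proteins share their outer domains but have no protease domain. TIMPs bind the active site of these enzymes, and TIMP2 has a second role in holding pro-MMP2 on membrane-bound MMP14, which activates it. In skeletal muscle this system turns over the basement membrane around the fibres and the connective tissue between them.

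The libraries held 16.4 to 25.4 M counts in RA+Dipy and 16.7 to 50.6 M in RA. The 8 markers of fast fibres summed to 168167 to 188099 CPM (a gene's count scaled to the size of its library, corrected by TMM in edgeR) in RA+Dipy and to 164666 to 228754 CPM in RA, so every library held fast-fibre transcripts at high levels. Of these markers, Atp2a1, the calcium pump of fast fibres, was low in 2 libraries, with 2117 CPM for RA+Dipy replicate 1 and 8217 CPM for RA replicate 4, against 19662 to 21923 CPM in the other RA+Dipy libraries and 17760 to 20339 CPM in the other RA libraries. Myh1 and Myh4 were also lowest in these 2 libraries, with Myh1 at 575 CPM and 463 CPM. Pvalb went the other way, with 46679 CPM in RA+Dipy replicate 1 and 64431 CPM in RA replicate 4. Its other libraries were at 11540 to 14438 CPM in RA+Dipy and 11650 to 21475 CPM in RA. Single markers thus moved in both directions within the sum. RA+Dipy replicate 1 and RA replicate 4 stood apart from the other 6 libraries: of 12615 tested genes, 19.3% in the RA+Dipy library and 38.3% in the RA library lay more than 1 log2 unit from the median of those 6. Fold changes of all tested members with and without both libraries are in the plot of fold changes, and the values that moved most are given in the text. No gene of the 12755 tested passed an adjusted p under 0.05 by edgeR's quasi-likelihood test, where the smallest adjusted p was 0.882. Without adjustment, 488 genes (3.83%) had a p under 0.05.

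No member of the 4 families passed the adjusted threshold, as was the case for all genes (0%). The 3 members with an unadjusted p under 0.05 were the proteases Adamts1, Adamts12 and Adamts20, each with higher levels in RA+Dipy. That is 9.09% of the 33 tested members, where 1.68% of all tested genes were higher at that p, and 0 members were lower, where 2.15% of all genes were. The log2 fold change (RA+Dipy over RA, here and throughout) was above 0 in 21 of 33 members and in 52.2% of all genes. The median over the members was 0.23, against 0.02 over all tested genes. Groups did not overlap for 2 members, Adamts1 and Timp2, both higher in RA+Dipy; over all genes the groups did not overlap in that direction for 1.46%. By edgeR, only Adamts1 kept an unadjusted p under 0.05 when RA+Dipy replicate 3 or RA+Dipy replicate 4 was left out. When RA replicate 1, 2 or 3 was left out, Adamts20 lost that p and Adamtsl2 gained it, as lower in RA+Dipy. The count of 3 members thus rests on libraries of both groups. DESeq2 gave 4 of 33 members at an unadjusted p under 0.05 (5.8% of all genes; 2.07% higher and 3.73% lower), adding Adamtsl2 as lower, and limma-voom gave Adamts1, Adamts12 and Adamts20 again (2.97% of all genes; 1.8% higher and 1.17% lower). With weights that let each library vary in quality, limma-voom put 3 members, Adamts1, Adamts12 and Adamts2, at an adjusted p under 0.05, all higher in RA+Dipy, where 1.04% of all genes were called and 0.87% were called higher. That fit also placed 28.5% of all genes at an unadjusted p under 0.05, beside 17 members. These counts describe only the members that passed the filter, which a gene can pass through the higher group alone.

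Inhibitor transcript was the largest part of the system. Per kilobase of exon, the TIMPs summed to 57.3 to 81.8 CPM per kilobase in RA+Dipy and 45.6 to 92.7 in RA, 47.8% of the summed level of all members. The metalloproteases held 32.2%, the ADAMTS-like proteins 10.4% and the ADAMTS proteases 9.73%. Timp2 stood first at 53.7 CPM per kilobase in RA+Dipy and 42.8 in RA (means), followed by Mmp2, the gelatinase that it helps to activate, at 30.2 in RA+Dipy and 20.8 in RA. Next came Timp1, Adamtsl5, Mmp15, Timp4 and Mmp14, whose ranges over the libraries overlapped one another. Without RA+Dipy replicate 1 and RA replicate 4, Timp1 averaged 4.26 CPM per kilobase in RA+Dipy and 2.91 in RA and stood at rank 10 in place of 3, and Mmp14 at rank 9 in place of 7. Among ADAMTS proteases the order per kilobase began with Adamts1, Adamts2 and Adamts5, and Adamts4, Adamts6 and Adamts16 stood lowest of the tested members of that family.

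**Figure D1:**
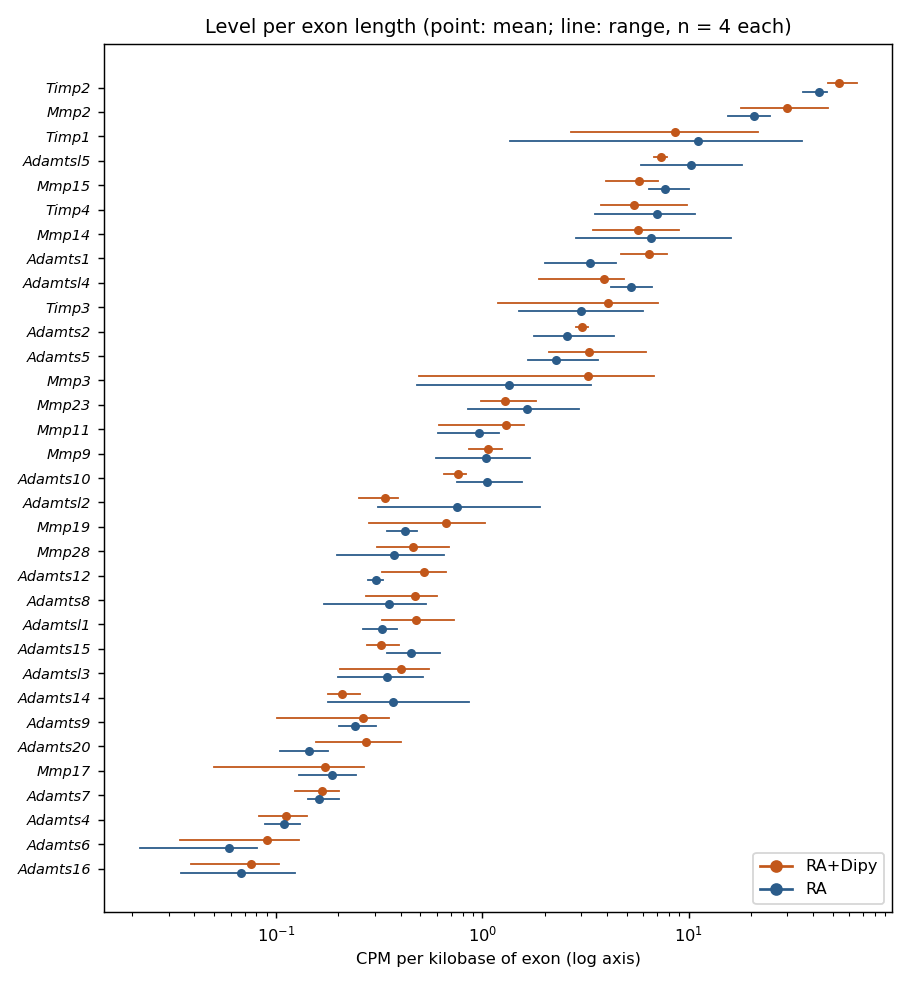
Level of the 33 tested members in CPM per kilobase of exon, on a log axis, with the mean as a point and the range over 4 libraries as a line, RA+Dipy above RA for each gene. Timp2 and Mmp2 stand at the top in both groups, and Adamts6 and Adamts16 at the bottom.

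Proteoglycan-cleaving ADAMTS enzymes held 2 of the 3 members with the smallest p. Adamts1, which cuts versican and aggrecan, stood at 32.3, 24.8, 36.8 and 41.9 CPM in RA+Dipy replicates 1 to 4, against 19.8, 23.6, 16.6 and 10.6 CPM in RA replicates 1 to 4. Every RA+Dipy library lay above every RA library, with the closest approach between RA+Dipy replicate 2 and RA replicate 2. Its log2 fold change was 0.94 (SE 0.29; unadjusted p = 0.00891, adjusted p = 0.882 by edgeR). In each of the 18 other settings tried its unadjusted p stayed under 0.05 and its log2 fold change lay between 0.78 and 1.11. Adamts1 lies on chromosome 16 at 85793827 to 85803113, on the minus strand (GRCm38, GENCODE vM21).

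The same role list holds Adamts20, known in mice for its part in the spread of pigment cells. It stood at 1.65, 1.40, 3.12 and 3.64 CPM in RA+Dipy, against 1.36, 1.25, 0.937 and 1.61 CPM in RA. RA+Dipy replicates 1, 3 and 4 were above all RA libraries, and RA+Dipy replicate 2 was below RA replicate 4, so the groups overlapped. This gave a log2 fold change of 0.95 (SE 0.37; unadjusted p = 0.0290, adjusted p = 0.882 by edgeR), which kept its unadjusted p under 0.05 in 12 of the 18 other settings. Adamts15, another versican-cleaving enzyme, went the other way in value, at 3.50, 4.06, 3.00 and 2.84 CPM in RA+Dipy and 4.94, 3.63, 3.55 and 6.42 CPM in RA (log2 fold change −0.46, SE 0.27), and at −0.26 without RA replicate 4. The remaining 4 of the 7 genes had log2 fold changes of 0.01 for Adamts4, 0.13 for Adamts9, 0.45 for Adamts8 and 0.54 for Adamts5. The Adamts5 value was 0.031 without RA+Dipy replicate 1, its highest library, 0.87 without RA replicate 4 and 0.35 without both, and that of Adamts8 was 0.85 without both. Adamts4 and Adamts5 are the aggrecanases of arthritic cartilage; in this muscle Adamts5 was far the more abundant, at 2.32 CPM per kilobase in RA+Dipy and 1.83 in RA without both libraries that stood apart, whereas Adamts4 averaged 0.118 over the same 6 libraries.

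Of the other ADAMTS genes, Adamts12, an enzyme that cuts the cartilage protein COMP, stood at 3.56, 5.24, 6.70 and 7.28 CPM in RA+Dipy, against 3.29, 3.60, 3.05 and 3.38 CPM in RA. Its RA values were tightly grouped, and only RA+Dipy replicate 1, at 3.56 CPM, fell among them. With all 8 libraries its log2 fold change was 0.78 (SE 0.27; unadjusted p = 0.0154, adjusted p = 0.882 by edgeR), and its unadjusted p was under 0.05 in 15 of the 18 other settings. Adamts10, a partner of fibrillin microfibrils, stood at 5.35, 6.83, 6.50 and 6.32 CPM in RA+Dipy and 8.98, 6.23, 6.52 and 12.8 CPM in RA (log2 fold change −0.46, SE 0.28). Its high RA values were in replicates 1 and 4, and without replicate 4 the log2 fold change was −0.20. Adamts6, Adamts7 and Adamts16 had log2 fold changes of 0.57, 0.067 and 0.33, none with an unadjusted p under 0.05.

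The procollagen N-proteinases cut the amino-terminal propeptide from fibrillar procollagens. Adamts2, the main one in skin and other dense tissue, was at 26.6 to 30.4 CPM in RA+Dipy and at 16.7, 18.3, 20.3 and 40.5 CPM in RA, the last in replicate 4. All 4 RA+Dipy libraries lay above 3 of the 4 RA libraries. Its log2 fold change was 0.24 (SE 0.30) with all libraries and 0.63 without RA replicate 4, where its unadjusted p was under 0.05. Adamts14 was at 1.32, 1.11, 0.962 and 0.920 CPM in RA+Dipy and 1.28, 0.926, 0.937 and 4.48 CPM in RA (log2 fold change −0.76, SE 0.53). Without RA replicate 4 the log2 fold change was 0.030. Adamts3 was below the filter, with 38 counts over the RA+Dipy libraries and 31 over the RA libraries.

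**Figure D2:**
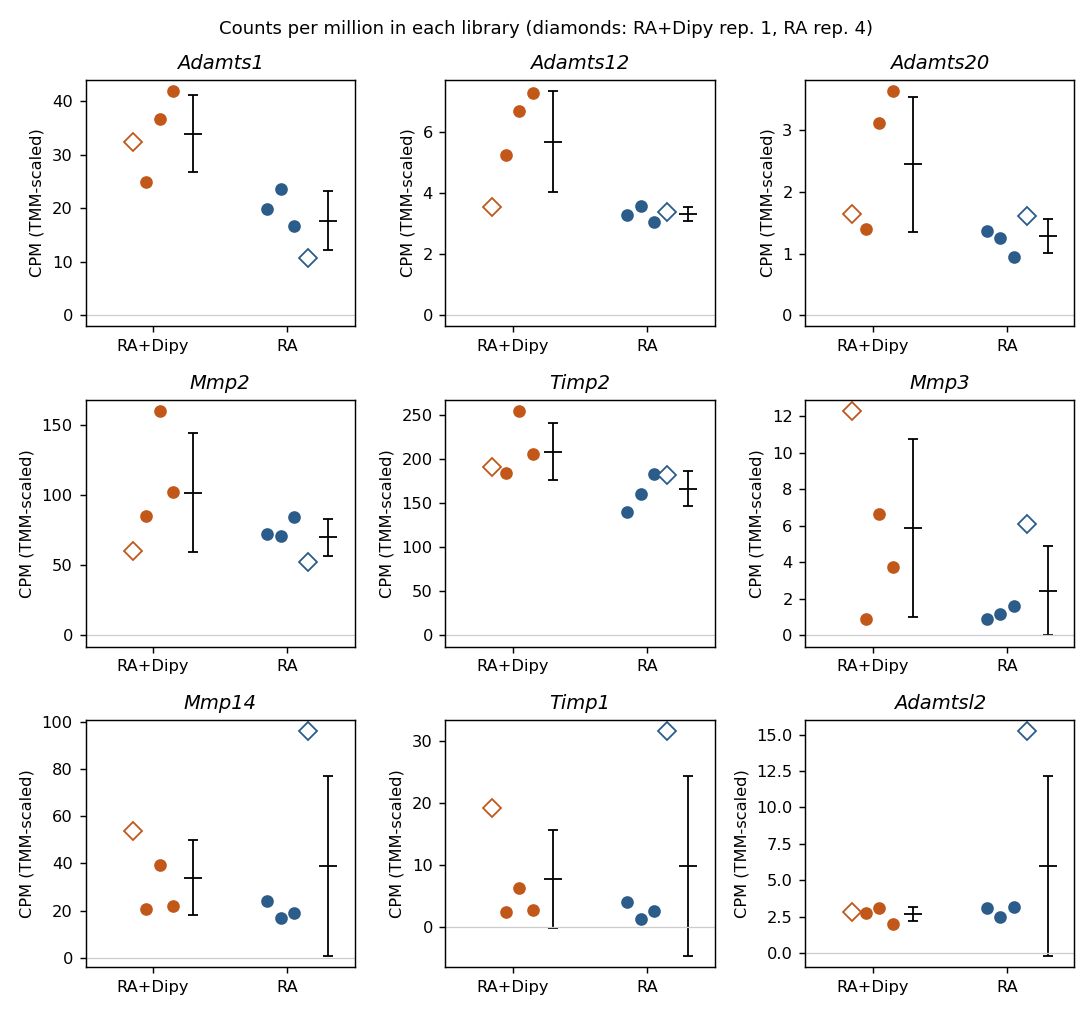
CPM of 9 members in each library, RA+Dipy left and RA right, with replicates 1 to 4 from left to right in each group; bars give the mean and SD (n = 4), drawn below 0 where the SD exceeds the mean. Open diamonds are RA+Dipy replicate 1 and RA replicate 4, which hold the highest Timp1 and Mmp14 values, at 19.2 and 31.5 CPM for Timp1.

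Gelatinases cut denatured collagen and the type IV collagen of basement membranes. Mmp2 stood at 60.3, 85.0, 159.8 and 102.2 CPM in RA+Dipy, against 72.2, 71.1, 84.2 and 52.3 CPM in RA. RA+Dipy replicates 2 to 4 lay above all RA libraries, and RA+Dipy replicate 1 lay below RA replicates 1 to 3. The log2 fold change was 0.54 (SE 0.32; adjusted p = 0.882 by edgeR), and 0.24 without RA+Dipy replicate 3, the highest library. Mmp9, the gelatinase of neutrophils and macrophages, had overlapping groups, at 3.04, 4.39, 4.00 and 3.56 CPM in RA+Dipy and 2.92, 2.10, 3.71 and 6.00 CPM in RA (log2 fold change 0.05, SE 0.33). The sign of this value turned without RA+Dipy replicate 2 (−0.04), RA replicate 1 (−0.05) or RA replicate 2 (−0.14), and it was 0.38 without RA replicate 4. The 8 neutrophil markers summed to 1.3 to 3.8 CPM in RA+Dipy and 0.6 to 2.7 CPM in RA, and only 2 of the 8 passed the count filter.

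Membrane-type enzymes act at the cell surface. Mmp14, which activates pro-MMP2 and cuts fibrillar collagen, stood at 53.8, 20.6, 39.5 and 22.2 CPM in RA+Dipy, against 24.2, 17.0, 18.9 and 95.8 CPM in RA. The 2 highest values belong to the libraries that stood apart, 1 in each group, and the rest overlapped. Its log2 fold change was −0.19 (SE 0.58). Leaving out RA replicate 4 gave 0.78, leaving out RA+Dipy replicate 1 gave −0.50, and leaving out both gave 0.46, so these data fix no direction. Mmp15 was more even, at 21.6, 38.4, 32.5 and 32.1 CPM in RA+Dipy and 40.5, 34.7, 35.4 and 54.5 CPM in RA (log2 fold change −0.40, SE 0.26). Its lowest library was RA+Dipy replicate 1 and its highest RA replicate 4, and without both the value was −0.10. Mmp17 had a log2 fold change of −0.09, while Mmp16, Mmp24 and Mmp25 were below the filter, with 74, 6 and 25 counts over all 8 libraries.

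Of 4 secreted collagenases listed, 3 were in the count tables, and these were hardly seen in this muscle. Mmp8 and Mmp13, which cut fibrillar collagen at a single site, had 3 and 17 counts in all over the 4 RA+Dipy libraries and 2 and 3 counts over the 4 RA libraries. Mmp1b had 0 counts in every library, which allows up to 3 counts (counting error only). On the TMM-corrected scale, 3 counts are 0.198 CPM in RA+Dipy replicate 1 and 0.254 CPM in RA replicate 4, the 2 shallowest libraries. Mmp13 had at least 1 count in 4 of 4 RA+Dipy libraries and in 2 of 4 RA libraries. Mmp12, the elastase of macrophages, had 4, 4, 20 and 5 counts in RA+Dipy and 5, 2, 0 and 0 counts in RA. These genes were below the filter and outside the test. Mmp7 and Mmp10 had 0 counts in every library.

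Mmp3, stromelysin 1, cuts proteoglycans and laminin and opens other pro-metalloproteases, and it was the sole tested gene of its genomic cluster. It stood at 12.3, 0.886, 6.62 and 3.72 CPM in RA+Dipy, against 0.867, 1.18, 1.60 and 6.09 CPM in RA. The highest and lowest libraries differed 14.2-fold; RA+Dipy replicate 1 was highest, followed by RA+Dipy replicate 3 and RA replicate 4, and the groups overlapped. A log2 fold change of 1.34 (SE 0.79) resulted, which was 2.30 with RA replicate 4 left out, 0.71 with RA+Dipy replicate 1 left out and 1.66 with both left out. Mmp11, stromelysin 3, was at 1.72 to 4.40 CPM in RA+Dipy and 1.69 to 3.36 CPM in RA (log2 fold change 0.43, SE 0.35).

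Mmp3 lies among 9 members on chromosome 9, between positions 7272514 and 7699585 (GRCm38), with Mmp1b, Mmp7, Mmp8, Mmp10, Mmp12, Mmp13, Mmp20 and Mmp27. Many genes of this cluster are known to be switched on through AP-1, the Fos and Jun factor, which binds TGANTCA close to their start. The RefSeq table of upstream windows (GRCm38.p6) held 35 of the 50 members, and the 250 bases before each start were searched for this motif on both strands. It was found in 7 of the 9 genes of the cluster and in 0 of the 26 other members with a window, where 7.82% of 27025 genes had it. Mmp2, Mmp9, Mmp19, Adamts4 and Adamts5 were among the members without a window and were not searched. The cyclic AMP response element TGACGTCA, of interest beside a drug that inhibits phosphodiesterases, was in 0 of the 35, where 1.77% of genes had it. A match is a description of the letters, not a site in use. The last 120 bases before the start are printed for Mmp3, the tested gene of the cluster, for 3 neighbours with 0 or few counts whose windows hold the same elements, and for Adamts1, the member with the smallest p. Capitals mark AP-1 matches and the TATA box TATAAA.
Mmp3 (chr9:7445702-7445821, + strand): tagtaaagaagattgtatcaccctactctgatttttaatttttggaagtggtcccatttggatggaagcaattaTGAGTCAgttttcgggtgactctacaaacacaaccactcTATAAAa
Mmp10 (chr9:7502222-7502341, + strand): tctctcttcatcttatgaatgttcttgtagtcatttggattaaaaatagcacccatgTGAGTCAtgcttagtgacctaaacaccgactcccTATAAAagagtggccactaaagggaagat
Mmp13 (chr9:7272394-7272513, + strand): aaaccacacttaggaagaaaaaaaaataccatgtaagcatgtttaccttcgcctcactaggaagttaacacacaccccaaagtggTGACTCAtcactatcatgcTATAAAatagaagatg
Mmp1b (chr9:7388027-7388146, - strand): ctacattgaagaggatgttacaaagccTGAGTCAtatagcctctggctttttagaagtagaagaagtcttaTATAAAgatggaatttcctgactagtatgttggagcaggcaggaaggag
Adamts1 (chr16:85803114-85803233, - strand): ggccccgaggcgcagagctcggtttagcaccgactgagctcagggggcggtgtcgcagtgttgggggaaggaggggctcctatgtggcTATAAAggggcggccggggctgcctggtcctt
Mmp3 and Mmp10 thus carry the same AP-1 letters ahead of a TATA box and differ in whether any read was counted. The Adamts1 window holds a TATA box with no AP-1 match, and GC boxes (GGGCGG, either strand), which 35.4% of genes and 20 of the 35 members had.

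Among the other metalloproteases, Mmp19, which cuts basement membrane proteins, stood at 0.990, 1.81, 2.96 and 3.64 CPM in RA+Dipy and 1.22, 1.67, 1.33 and 1.69 CPM in RA. RA+Dipy replicates 2 to 4 were above all RA libraries and replicate 1 below them. Its log2 fold change was 0.69 (SE 0.39), and 0.40 without RA+Dipy replicate 4. Opposite-strand exons of Tmem198b cover 22.3% of the exon bases of Mmp19, and the counting without strand cannot separate reads there. Mmp23 and Mmp28 had log2 fold changes of −0.32 and 0.29, and Mmp20, the enamel protease, Mmp21 and Mmp27 were below the filter.

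ADAMTS-like proteins sit on fibrillin microfibrils in the matrix. Adamtsl2, in which human mutations cause geleophysic dysplasia, had the most negative log2 fold change of all tested members, −1.13 (SE 0.57), from 2.84, 2.77, 3.12 and 2.00 CPM in RA+Dipy and 3.07, 2.49, 3.16 and 15.2 CPM in RA. Without RA replicate 4 it was −0.11, and the other 7 libraries lay between 2.00 and 3.16 CPM. Adamtsl5 was the most abundant of the family, at 31.9, 37.2, 36.0 and 33.6 CPM in RA+Dipy and 44.5, 27.8, 36.4 and 85.7 CPM in RA (log2 fold change −0.49, SE 0.34; −0.05 without RA replicate 4). Adamtsl1 went the other way in value, at 4.16, 4.50, 6.31 and 9.28 CPM in RA+Dipy and 3.68, 4.74, 3.36 and 4.90 CPM in RA (0.55, SE 0.31), and 0.27 without RA+Dipy replicate 4, its highest library. Adamtsl3 and Adamtsl4 were at 0.23 and −0.43.

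Each of the 4 TIMPs showed its own pattern. Timp2, the inhibitor with the highest level, stood at 191.3, 184.2, 254.9 and 205.8 CPM in RA+Dipy, against 140.7, 161.1, 183.9 and 182.0 CPM in RA. The groups did not overlap, but RA+Dipy replicate 2 and RA replicate 3 were nearly level. The log2 fold change was 0.32 (SE 0.24; adjusted p = 0.882 by edgeR), and 0.22 without RA+Dipy replicate 3. The ratio of its highest to its lowest library, 1.81, was the smallest among the members above 1 CPM per kilobase.

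Timp1, the inhibitor induced by inflammation and injury, was the most variable of the tested members, with a 26.0-fold span. It stood at 19.2, 2.40, 6.24 and 2.72 CPM in RA+Dipy, against 3.96, 1.21, 2.58 and 31.5 CPM in RA. RA+Dipy replicate 1 and RA replicate 4 stood far above the other 6 libraries, and no difference between the groups could be read. With a log2 fold change of −0.35 (SE 1.00), it stood at 1.56 when RA replicate 4 was left out, at −1.33 when RA+Dipy replicate 1 was, and at 0.54 when both were.

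Timp3, the inhibitor held in the matrix, which also blocks ADAM17 and aggrecanases, stood at 9.70, 24.5, 40.7 and 58.2 CPM in RA+Dipy and 12.2, 49.2, 19.3 and 17.0 CPM in RA. High and low libraries occurred in both groups (log2 fold change 0.45, SE 0.56), and the value was 0.75 without RA+Dipy replicate 1, 0.034 without RA+Dipy replicate 4, 0.22 without RA replicate 1 and 1.05 without RA replicate 2. Opposite-strand exons of Syn3 cover 21.3% of its exon bases. Timp4, the inhibitor typical of heart and muscle, stood at 58.0, 25.6, 22.7 and 22.2 CPM in RA+Dipy and 20.8, 31.7, 63.6 and 49.3 CPM in RA. Its RA+Dipy replicate 1 was again high, and RA replicate 3 was the highest of all (log2 fold change −0.36, SE 0.42). Leaving out 1 library gave −0.81 (RA+Dipy replicate 1), −0.23 (RA+Dipy replicate 3), −0.22 (RA+Dipy replicate 4), −0.59 (RA replicate 1) or −0.09 (RA replicate 3).

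Enzyme was set against inhibitor per kilobase in each library. The Mmp2 to Timp2 ratio was 0.364, 0.533, 0.725 and 0.574 in RA+Dipy, against 0.593, 0.510, 0.529 and 0.332 in RA. The groups overlapped, and the lowest ratios were in the libraries that stood apart. The Mmp14 to Timp2 ratio lay between 0.0704 and 0.184 in RA+Dipy and between 0.0672 and 0.344 in RA, and the Mmp9 to Timp1 ratio between 0.0397 and 0.459 in RA+Dipy and between 0.0478 and 0.435 in RA. These are ratios of transcript and say nothing of active enzyme.

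A set of members departed in the same direction in RA+Dipy replicate 1 and RA replicate 4, which belong to different groups. Against the median of the other 6 libraries (log2 of CPM + 0.5), Timp1 was higher by 2.65 log2 units in RA+Dipy replicate 1 and by 3.35 in RA replicate 4, Mmp3 by 2.77 and 1.81, Mmp14 by 1.31 and 2.14, and Adamts5 by 1.58 and 0.80. Timp1, Mmp14, Adamts5 and Adamts14 were above all other 6 libraries in both. Conversely Mmp2, Mmp11, Adamts4, Adamts6 and Adamts9 were below all other 6 in both; for Mmp2 the differences were −0.48 and −0.69. Other members differed between the 2 libraries: Adamtsl2 was at −0.03 in RA+Dipy replicate 1 and 2.20 in RA replicate 4, and Adamts1 at 0.41 and −1.15. The departures in the 2 libraries also went together over all tested genes (Spearman's rho 0.34, and 0.62 over the 33 members). In each library 27.3% of members lay more than 1 log2 unit away. For all genes this was 19.3% in RA+Dipy replicate 1 and 38.3% in RA replicate 4. How many of all genes lay outside the other 6 libraries in both was not counted. Outside these libraries RA+Dipy replicate 3 was highest and RA replicate 2 lowest for both Timp1 and Mmp14.

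**Figure D3:**
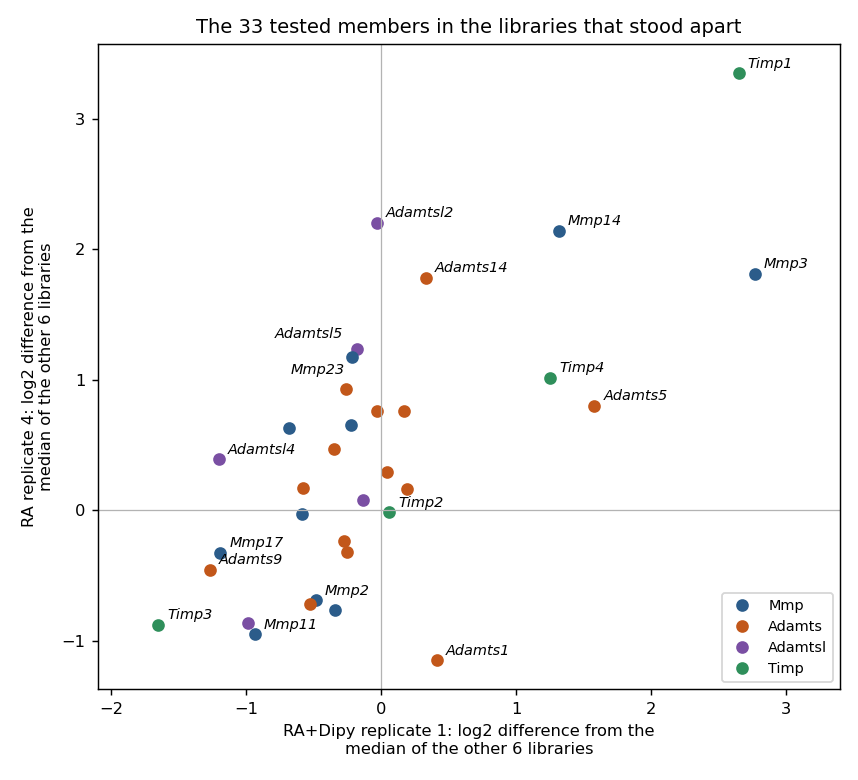
Log2 difference of each of the 33 tested members from the median of the other 6 libraries, in RA+Dipy replicate 1 (horizontal) and RA replicate 4 (vertical), colored by family. Timp1, Mmp3, Mmp14, Adamts5 and Timp4 lie high in both, and Adamtsl2 and Adamts14 mainly in RA replicate 4.

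Other measures also departed in these libraries, and their part in the member values was not tested. The 4 erythroid markers summed to 611 CPM in RA+Dipy replicate 1 and 875 CPM in RA replicate 4, against 114 to 200.5 CPM in the other RA+Dipy libraries and 111 to 191 CPM in the other RA libraries. That sum was mostly Hbb-bs in RA+Dipy replicate 1 (478 CPM) and mostly Hba-a1 in RA replicate 4 (714 CPM), 2 globin genes, whereas Alas2, the erythroid heme synthesis enzyme, was lowest in these libraries, at 0.594 CPM in RA+Dipy replicate 1 and 0.169 CPM in RA replicate 4. The 6 mast cell markers summed to 64.1 CPM in RA replicate 4 and to 16.2 to 25.5 CPM in the other 7 libraries. That sum in RA replicate 4 was mostly Mcpt4 (29.6 CPM) and Tpsb2 (19.4 CPM). Kit, at 0.930 CPM, lay within the range of the other libraries (0.650 to 1.64 CPM). Cpa3 and Cma1 were at 4.48 and 9.38 CPM, little above RA+Dipy replicate 1 (4.36 and 8.71 CPM). GC content of the transcript went with the departure of a gene: over 12615 tested genes Spearman's rho was −0.28 for RA+Dipy replicate 1 and 0.35 for RA replicate 4, and over the 33 members it was −0.18 for RA+Dipy replicate 1 and 0.26 for RA replicate 4. For transcript length, rho over all tested genes was −0.23 for RA+Dipy replicate 1 and −0.13 for RA replicate 4. Over the members it was −0.07 for RA+Dipy replicate 1 and −0.28 for RA replicate 4. These are correlations across genes of 1 library, which are not independent replicates. The tested members richest in GC were Adamtsl5, Adamtsl4, Mmp15, Adamts14, Mmp23, Adamts10 and Adamtsl2, with 61.7% down to 58.3%. All of these were above the median of the other 6 libraries in RA replicate 4, by 0.39 (Adamtsl4) to 2.20 (Adamtsl2) log2 units. Just below them in GC, Mmp28 and Mmp11, with 57.9% and 56.6%, were low there, at −0.77 and −0.95 log2 units. Adamts7 and Adamts8, with 57.8% and 57.4%, were at 0.29 and 0.17.

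Without both libraries the members leaned more to RA+Dipy, though none passed the adjusted threshold (smallest adjusted p 0.418 by edgeR, shared by several members). In that fit 25 of 33 had a log2 fold change above 0, with a median of 0.42 against 0.01 over all genes. An unadjusted p under 0.05 was reached by 12 of 33 members (36.4%), all higher in RA+Dipy, where 11.4% of all tested genes reached that p, 5.96% higher and 5.45% lower. The 12 were Adamts12 (log2 fold change 0.96, SE 0.19), Adamts2 (0.65, SE 0.13), Adamts1, Mmp19, Adamts20, Adamtsl1, Mmp2 (0.62, SE 0.22), Mmp11, Mmp3, Timp2 (0.42, SE 0.17), Adamts8 and Adamts5. Of the inhibitors, Timp2 was among the 12, while Timp4 had the most negative value of all members (−0.71, SE 0.35). With 3 mice left in each group, this fit was chosen with earlier results of these data known.

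**Figure D4:**
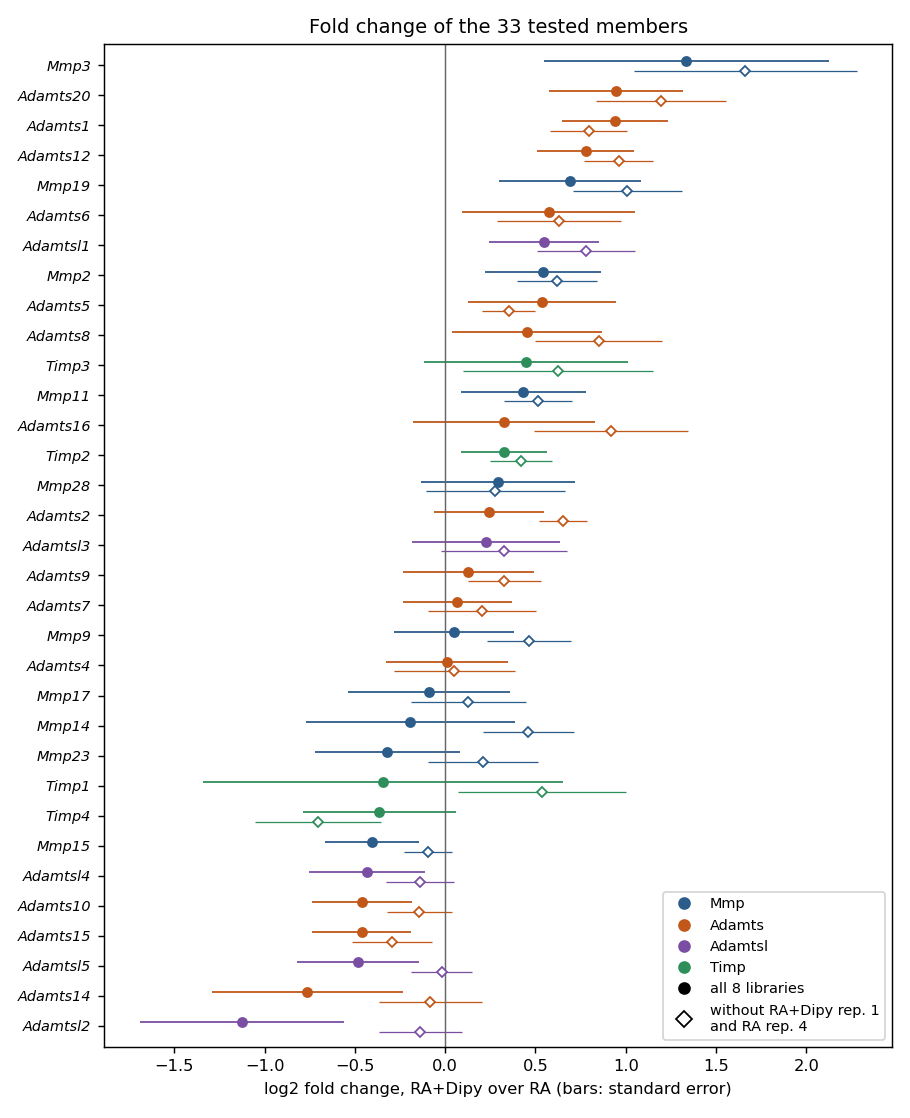
Log2 fold change (RA+Dipy over RA) with standard error for the 33 tested members, from all 8 libraries (filled circles) and without RA+Dipy replicate 1 and RA replicate 4 (open diamonds), colored by family. Adamts1, Adamts12 and Adamts20 lie between 0.78 and 1.19 in both fits, whereas Mmp14 is at −0.19 with all libraries and 0.46 without both, and Adamtsl2 at −1.13 and −0.14.

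Genes that act on these proteases lay on both sides, and none passed the adjusted threshold. Of 7 tested activators (of 10), 5 had a log2 fold change above 0, with a median of 0.46. Of the 7, 1 was higher at an unadjusted p under 0.05 by edgeR, where 1.68% of all tested genes were. That gene was Pcsk5, a proprotein convertase, at 5.94, 4.02, 5.70 and 4.80 CPM in RA+Dipy and 3.13, 2.88, 3.59 and 2.62 CPM in RA (0.73, SE 0.24), where the groups did not overlap. Furin, the convertase that opens membrane-type enzymes, stood at 38.9 ± 7.50 CPM in RA+Dipy and 57.0 ± 12.5 CPM in RA (SD, n = 4 each; log2 fold change −0.55, SE 0.25; −0.25 without both libraries that stood apart). Of 6 tested inhibitors and clearance factors (of 10), 5 were above 0 (median 0.48). Reck, a membrane-anchored inhibitor of metalloproteases, was at 5.51 ± 1.24 CPM in RA+Dipy and 3.16 ± 1.46 CPM in RA (SD, n = 4 each; 0.79, SE 0.36).

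Of 12 tested inducers and surface partners (of 17), 4 were above 0, with a median of −0.34 that was 0.02 without both libraries that stood apart. Bsg, known as the extracellular inducer of metalloproteases, was at 716 ± 41.7 CPM in RA+Dipy and 1077 ± 345 CPM in RA (SD, n = 4 each; log2 fold change −0.59, SE 0.30), with its highest library RA replicate 4, and was at −0.38 without both libraries. Sdc4, the heparan sulfate proteoglycan syndecan 4, had a log2 fold change of −0.65 (SE 0.39).

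Substrates of these enzymes lay mostly on the RA+Dipy side. Of 14 collagen, fibronectin and basement membrane genes, all tested, 12 were above 0, with a median of 0.59. Of the 14, 4 had an unadjusted p under 0.05 by edgeR, all higher, where 1.68% of all tested genes were higher at that p. Lamb1, a laminin chain, was at 42.5 ± 4.62 CPM in RA+Dipy and 26.4 ± 5.85 CPM in RA (SD, n = 4 each; 0.68, SE 0.24), and its groups did not overlap. Col3a1, which earlier results of these data had already singled out, had a log2 fold change of 1.44 (SE 0.51). Of 7 tested proteoglycans and other substrates (of 10), 5 were above 0 (median 0.49); Fbn2, a fibrillin, was at 1.66 (SE 0.63) and Vcan, versican, the substrate of Adamts1, at 7.61 ± 1.85 CPM in RA+Dipy and 4.18 ± 2.26 CPM in RA (SD, n = 4 each; 0.85, SE 0.42). The highest Vcan library was RA+Dipy replicate 1 and the lowest RA replicate 4, and without both the log2 fold change was 0.41.

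In bulk muscle, more cells of a type and more transcript per cell cannot be told apart, and several cell types of the interstitium make these proteases. The 8 fibroblast and fibro-adipogenic progenitor markers summed to 784 to 1572 CPM in RA+Dipy and 645 to 946 CPM in RA, and 7 of 8 had a log2 fold change above 0 (median 0.51, and 0.32 without both libraries that stood apart). The 8 macrophage markers summed to 140 to 295 CPM in RA+Dipy and 99.1 to 226 CPM in RA, with 7 of 8 above 0 (median 0.78, and 0.72 without both). The highest sum of each group was in the library that stood apart. Of the 8, 4 were higher at an unadjusted p under 0.05 by edgeR, where 1.68% of all tested genes were. Schwann cell markers (6) summed to 171 to 280 CPM in RA+Dipy and 240 to 543 CPM in RA, with 0 of 6 above 0 (median −0.93, and −0.51 without both), and adipocyte markers (6) to 147 to 507 CPM in RA+Dipy and 137 to 291 CPM in RA, with 5 of 6 above 0 (median 1.12, and 1.98 without both). RA+Dipy replicate 4 alone was at 507 CPM in adipocyte markers, and the other RA+Dipy libraries were at 147 to 195 CPM. With 1 library left out, the members' median log2 fold change lay between 0.034 (RA+Dipy replicate 4) and 0.32 (RA replicate 4). The part of adipocyte content in these medians was not tested. Endothelial markers (6) summed to 183 to 278 CPM in RA+Dipy and 202 to 223 CPM in RA, tendon markers (6) to 599.7 to 1061 CPM in RA+Dipy and 474 to 1036 CPM in RA, and chondrocyte markers (5) to 5.5 to 7.5 CPM in RA+Dipy and 5.5 to 10.4 CPM in RA. None of the markers on these lists was at 0 in all 8 libraries. The part of these cell types in the values of Adamts1, Adamts12, Mmp2 and the other members was not tested.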

How the data were processed

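Reads (single, 100 bases) were cleaned with fastp 0.20.0, per the design text, and mapped by STAR 2.7.3a to the GRCm38.p6 build, per the submitters' processing notes. HTSeq then tallied them per gene without regard to strand, per the design text; which annotation release it used is not stated. The authors deposited these raw read counts, 1 table per library. The labels name the TruSeq system and the design text a directional kit. Symbols on more than 1 line (24, none a member) were summed. Genes were kept by filterByExpr (minimum count 10), which left 12755 and removed 9078. RA+Dipy was set against RA by edgeR 4.0.16 under R 4.3.3, using its quasi-likelihood test (TMM, robust dispersions, group as the sole term), two-sided, with Benjamini-Hochberg adjustment over all tested genes and a threshold of 0.05; SE is the size of the log2 fold change over the square root of F. The test was run on simulated data first. Alternatives used DESeq2 1.42.0 and limma 3.58.1. Exon lengths, positions and GC content come from GENCODE vM21.

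The members and lists, the tests and the settings were chosen with earlier results of these data known. Members given library by library were the TIMPs, Mmp2, Mmp9, Mmp14, the 6 smallest p in each direction and the smallest p of each role list; Adamts2 (in full) and further values of Mmp11 and Adamts5 were added after they were seen. Of the regulator and substrate lists, the 2 smallest p of each were named, except 1 gene that is not reported here. Replicate numbers are shared by the groups, but not every same-numbered pair deviated together. These deviations cannot tell whether mice were paired. Libraries were not treated as paired, and the replicate number was a block in an alternative fit. Within a group, no pair of libraries agreed within sampling noise (smallest chi-square per degree of freedom 29.3). Of the 50 members, 13 share exon bases with a gene on the opposite strand. Counting intervals cover counting error only.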

Additional observations from a re-analysis of the deposited data

Results flagged for a closer look

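Of 66 groups of 4 values (33 members in each treatment), 9 held a library far from the other 3 by Dixon's test. Of the 9, 6 were RA replicate 4 and 3 were RA+Dipy replicate 1. Chance gives such a library in about 1 of 20 groups if values are normal and groups independent. These groups shared the same 8 libraries, and CPM need not be normal, so that rate is only a guide. In RA+Dipy replicate 1, Adamts5 was at 67.2 CPM (other RA+Dipy libraries 22.8 to 28.8), Timp4 at 58.0 CPM (22.2 to 25.6) and Mmp11 at 1.72 CPM (4.16 to 4.40). In RA replicate 4, Mmp14 was at 95.8 CPM (other RA libraries 17.0 to 24.2), Adamts2 at 40.5 CPM (16.7 to 20.3), Timp1 at 31.5 CPM (1.21 to 3.96) and Adamtsl2 at 15.2 CPM (2.49 to 3.16). Mmp3 was at 6.09 CPM (0.867 to 1.60) and Adamts14 at 4.48 CPM (0.926 to 1.28) in the same library.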

How the results depend on the processing

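Over 18 alternatives, calls were made by 1: limma-voom with library weights called 133 genes and 3 members, Adamts1 (0.93), Adamts12 (1.00) and Adamts2 (0.60), all higher in RA+Dipy (1.04% of genes called). Under the other 17 alternatives 0 genes passed; DESeq2 had 740 genes and 4 members at an unadjusted p under 0.05, and limma-voom 379 and 3. The median log2 fold change of the tested members stayed above 0 in all, from 0.03 (without RA+Dipy replicate 4) to 0.45. With the replicate number as a block in edgeR, 165 genes and 1 member (Adamts1) had an unadjusted p under 0.05, against 488 and 3. Same-numbered libraries had residual correlations of −0.27, 0.15, 0.22 and −0.38. The libraries that stood apart weigh on these correlations, which therefore cannot tell whether mice were paired. Of 19 members given library by library, 15 kept their sign throughout. Mmp14 turned positive with the replicate block (0.17), limma-voom (0.10), library weights (0.58) and without both libraries that stood apart (0.46), and Timp1 likewise (0.56, 0.35, 0.62 and 0.54). Leaving out 1 library moved Mmp14 between −0.50 and 0.78, Timp1 between −1.33 and 1.56, Mmp9 between −0.14 and 0.38 (0.47 without both) and Adamts14 between −0.995 and 0.030. Members at an unadjusted p under 0.05 numbered 1 without RA+Dipy replicate 3 or replicate 4 (184 and 178 genes), 7 without RA+Dipy replicate 1 (688 genes), 3 without RA replicate 1 or 2 (296 and 1187 genes), 5 without RA replicate 4 (519 genes) and 12 without both (1461 genes). Without RA replicate 1 or 2, the 3 were Adamts1, Adamts12 and Adamtsl2, the last lower in RA+Dipy. The cause of these differing counts was not tested. Without a count filter, Mmp12 (2.56, SE 0.86) and Mmp13 (2.66, SE 0.96) joined the members at an unadjusted p under 0.05, from 33 and 17 counts in RA+Dipy and 7 and 3 in RA, and depth limits what can be said of them.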
